A study of Danio rerio with 37 samples.

Results

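Cytosolic ribosomal protein genes encode the proteins of the small (40S) and large (60S) subunits of the ribosome, the particle that translates all nuclear mRNAs. In zebrafish whole embryos 6 hours after fertilization, 83 of 32520 annotated genes were taken by symbol: names beginning with rpl or rps and a number, the stalk genes rplp0, rplp1, rplp2 and rplp2l, and rpsa. Of these, 47 belong to the 60S and 36 to the 40S subunit. The rps6k kinases, which share the prefix but are no part of the ribosome, were left out.

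Vertebrate ribosomal protein mRNAs are among the most abundant in a growing cell. Most begin with a pyrimidine-rich (TOP) motif, through which LARP1 and the growth regulator mTORC1 control their translation and stability. An early embryo inherits ribosomes from the egg and adds its own once the zygotic genome is active, so at the start of gastrulation these mRNAs can be maternal, zygotic or both. Assembly of the subunits also needs RNA polymerase I and biogenesis factors in the nucleolus, and free Rpl5 and Rpl11 are known in mammals to bind the p53 inhibitor Mdm2 when assembly fails.

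The 37 libraries fall into 12 groups. RfxCas13d, DjCas13d or Cas7-11, CRISPR effectors that cut RNA matched by a guide, was used with 10 pg or 50 pg of GFP, each with a control and a knockdown arm. Groups had 3 libraries, except 2 in the 10 pg RfxCas13d knockdown and 4 in each 10 pg Cas7-11 arm. The labels state neither the strain nor what controls received. They do not say whether libraries came from separate clutches or how many embryos each pooled. The p-values therefore reflect only variation among libraries, some of which may be technical. The series' design text speaks of a knockdown of primary miR-430, while the sample titles name GFP, so the labels differ on what was targeted. GFP was lower in every knockdown library than in any control of its effector and dose. With RfxCas13d it stood at 4.26 and 7.92 TPM against 676 to 4464 TPM at 10 pg, and at 121 to 446 TPM against 4226 to 21930 TPM at 50 pg.

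A library of the RfxCas13d set had 3944559 to 8034012 reads in genes. The range was 5945891 to 7337941 for DjCas13d, and Cas7-11 was sequenced deepest, at 17432069 to 23991611. Of 19 markers of gastrula layers and germ cells, all were detected in each library above 1 TPM, except the yolk syncytial layer gene mxtx2, which was so in 36. Of 4 genes of later tissues, muscle myhz2 reached 1.02 TPM, glial gfap 0.43 TPM, globin hbae3 1.48 TPM and rhodopsin (rho) 3.66 TPM, and rho was above 1 TPM in 12 libraries. In 5 libraries the nuclear noncoding RNA malat1 stood apart, at 5286 to 6356 CPM (reads scaled to library size) against 416 to 2272 CPM in the other 32. These malat1-rich libraries were 10 pg RfxCas13d controls 1 and 3, 50 pg RfxCas13d control 1, and 10 pg DjCas13d knockdowns 1 and 2. Mitochondrially encoded mRNAs took 5.03% to 9.65% of their reads, against 1.13% to 4.58% elsewhere. Effectors differ in depth and perhaps in experiment, which cannot be told apart from the effector.

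Summed over the 83 genes, ribosomal protein transcripts made up 6.49% to 20.3% of all TPM (a level corrected for transcript length and library size). The share was lowest in the 50 pg RfxCas13d knockdown, at 9.75%, 6.49% and 7.23% (mean 7.82% ± 1.71, SD, n = 3). Its controls were at 20.3%, 17.6% and 11.2% (16.4% ± 4.7, n = 3), so the arms did not overlap. Control 3, which was not malat1-rich, was the lowest of the 3 controls. At 10 pg the RfxCas13d knockdown libraries held 8.88% and 8.64% (8.76% ± 0.17, n = 2), below controls at 14.9%, 10.4% and 15.6% (13.6% ± 2.84, n = 3). The 2 higher controls were the malat1-rich ones. In whole-embryo RNA, fewer cells of a type and less of these mRNAs per cell cannot be told apart.

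With DjCas13d, the 50 pg knockdown held 12.3%, 10.1% and 12.1% (11.5% ± 1.22, n = 3), all below its controls at 15.3%, 15.6% and 12.9% (14.6% ± 1.5, n = 3). At 10 pg the knockdown libraries stood at 16.7%, 18.7% and 11.5% (15.6% ± 3.7, n = 3), and controls averaged 12.3% ± 1.17 (n = 3). These 10 pg arms overlapped, and the 2 high knockdown libraries were the malat1-rich ones. The 4 Cas7-11 groups averaged 10.2% to 10.4%. In the order of the 12 group means, from the 50 pg RfxCas13d controls down to the knockdown of the same dose, each neighbouring pair of groups overlapped except the 50 pg Cas7-11 knockdown and the 10 pg RfxCas13d knockdown.

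**Figure D1:**
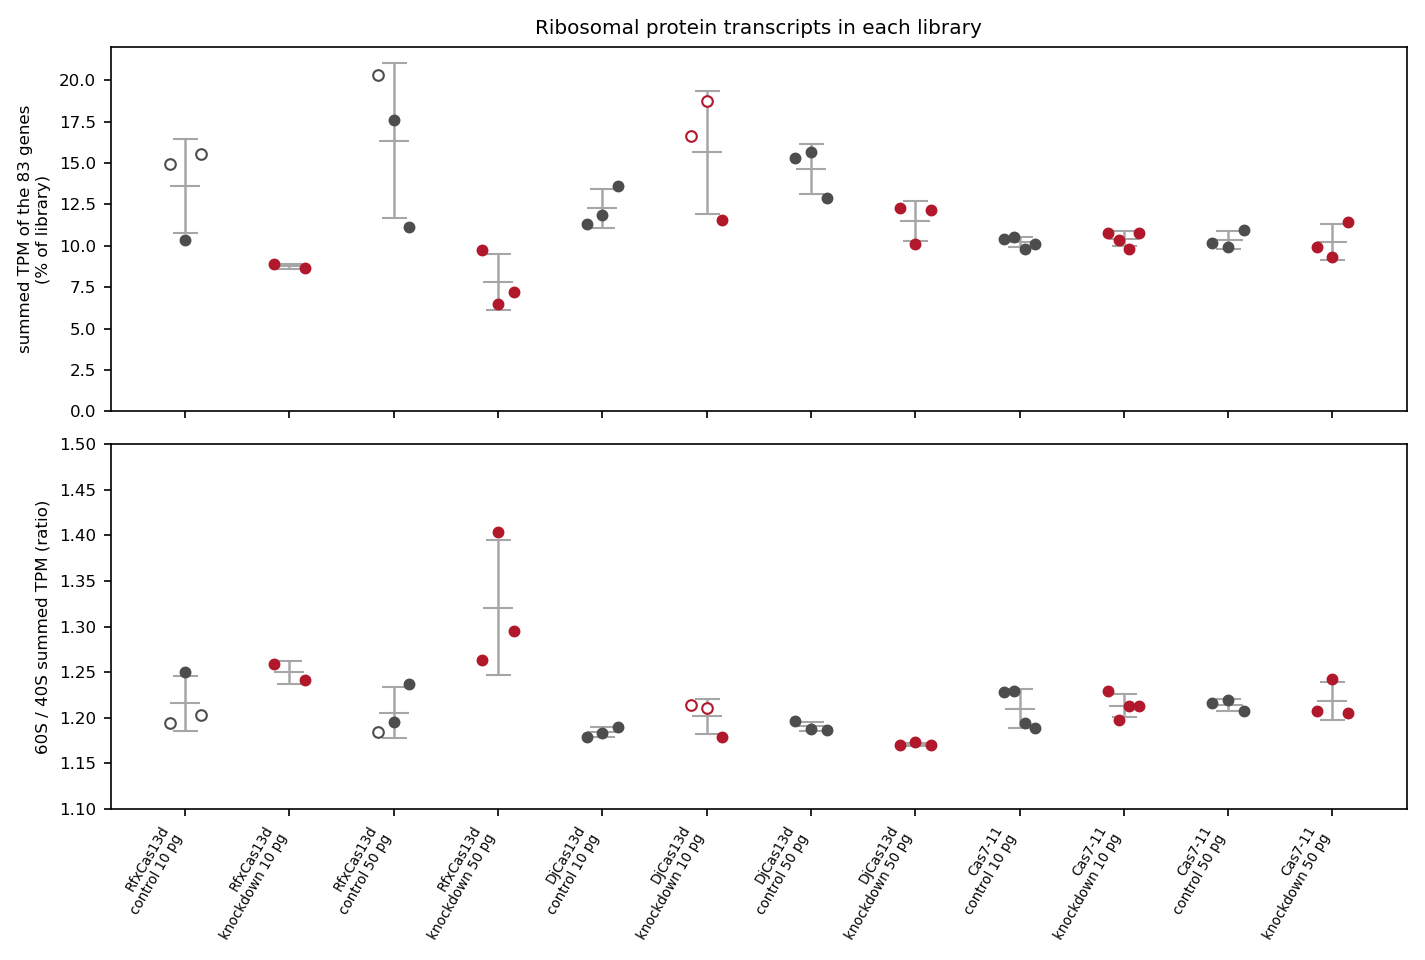
Upper panel: summed TPM of the 83 genes as a percentage of each library, by group. Lower panel: the ratio of summed 60S to summed 40S TPM, on an axis that does not start at 0. Points are libraries (grey control, red knockdown, open circles malat1-rich) and grey bars are the mean ± SD. The 50 pg RfxCas13d knockdown libraries lie at 6.49% to 9.75%, below their controls, and their ratios of 1.26 to 1.40 lie above those of their controls.

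The balance between subunits was close in most groups, with mean 60S to 40S ratios of 1.17 to 1.25 in TPM. In the 50 pg RfxCas13d knockdown the ratios were 1.263, 1.404 and 1.295, and those of its controls were 1.184, 1.195 and 1.237, which did not overlap. The genes themselves fell by the same median in both subunits, with log2 fold changes of -1.77 over 36 40S genes and -1.78 over 46 60S genes. The 10 most abundant members held 21.9% to 28.2% of the summed TPM in each group. The gene of highest TPM was rpl12, a 60S protein of the stalk base, in 11 of the 12 groups.

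Single genes spanned a wide range of levels. Median TPM over the 37 libraries ran from 124 TPM for rpl35a to 3876 TPM for rpl12, leaving aside rps8b, at 0 to 3.58 TPM. Of rps8b, a duplicate of rps8a, between 0 and 41 reads were counted per library, so its tests carry little weight. The 60S gene rpl26 stood at 682 to 3103 TPM in the deposited TPM tables, yet the deposited count tables gave it 0 to 3 reads per library. It therefore failed the filter on low counts, and 82 of the 83 genes could be tested among 16321. The 60S gene rpl9 was also counted sparsely, at 0.0398 CPM per TPM against a median of 0.334 over the family. For rpl35a the value was high, at 2.13 CPM per TPM with 266 to 7449 reads, so its low place in TPM is uncertain. Multimapping reads were not counted to any gene, so genes with near-identical copies are uncertain.

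Across the 37 libraries the family moved as a block. The log2 CPM of a gene correlated with the mean of the other members at a median Pearson r of 0.96, a description over libraries that share depth and group. Only rps27l, at 0.09, and rps8b, at 0.10, lay below 0.8. The family mean correlated with log2 malat1 CPM at 0.80 over 37 libraries and at 0.70 over the 32 that were not malat1-rich. Its correlation with the mitochondrial mRNA share was 0.42 and -0.16 in the same sets. The part of malat1 or mitochondrial RNA in the results was not tested, except by leaving out the malat1-rich libraries. That step leaves the malat1 differences among the other libraries in place.

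**Figure D2:**
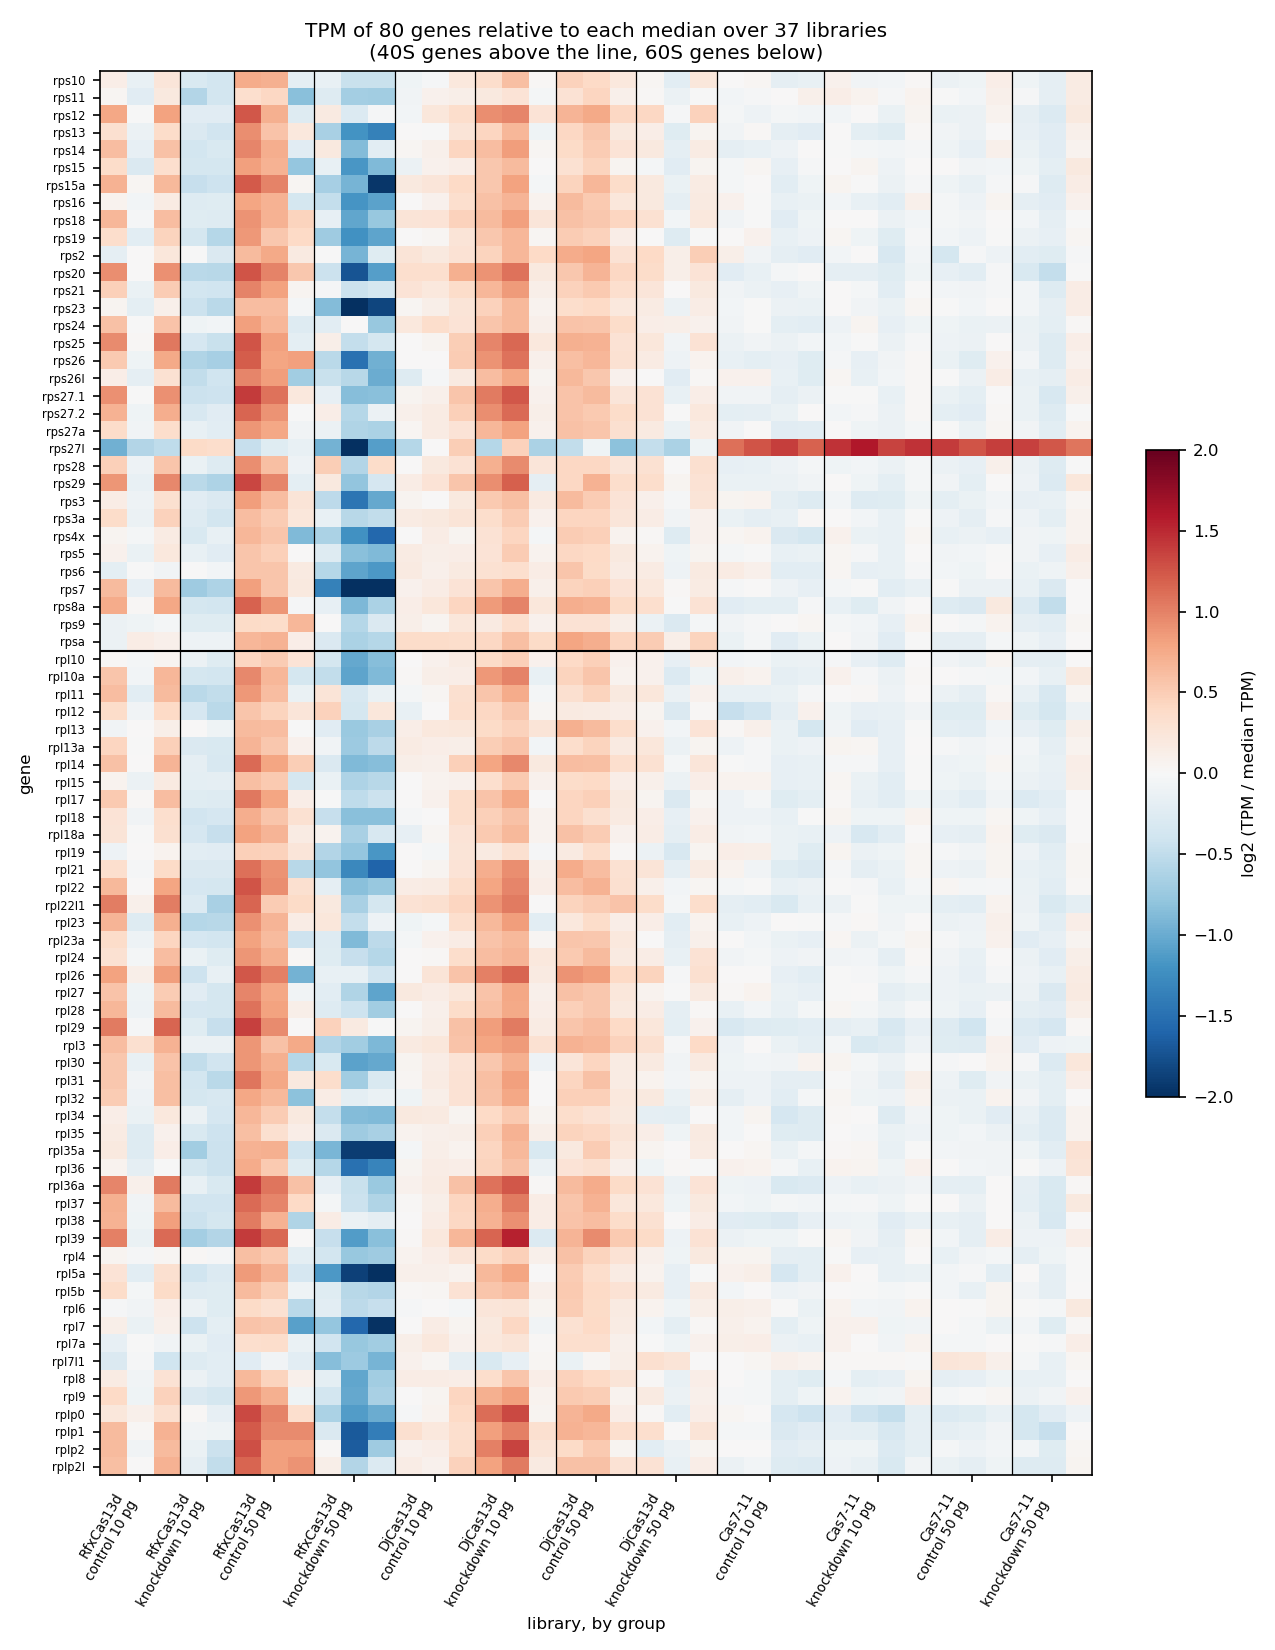
Log2 of the TPM of each of 80 genes (rows) over its own median in the 37 libraries (columns, in group order), with 40S genes above the black line and 60S genes below. Blue columns mark the 50 pg RfxCas13d knockdown, red columns the libraries with a high share, and the single red row at right is rps27l in Cas7-11 libraries.

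With 50 pg and RfxCas13d, 81 of 82 ribosomal protein genes fell in the knockdown and none rose (edgeR quasi-likelihood test, adjusted p under 0.05 over all 16321 genes). Over all genes, 28.8% were lower and 30.0% higher by the same rule. The median log2 fold change was -1.77, or 3.41-fold lower, against 0.05 over all genes tested. All 81 fell more than 2-fold, as did 3135 of all 16321 genes by the same rule. Among the called members, log2 fold changes ran from -3.19 for rps7 to -1.01 for rpl12. Scaled by library size alone, some members fell less than 2-fold, among them rpl12 at -0.42 and rpl32 at -0.53. The exception was rps8b, at -0.91 (SE 0.98, adjusted p = 0.435). Libraries of the 2 arms did not overlap, in scaled CPM, for 64 of the 82 genes with the knockdown lower, against 24.8% of all genes. Without the malat1-rich libraries, among them control 1 of this comparison, 81 genes again fell and the median was -1.53 (27.4% of all genes lower). The controls left had malat1 at 1652.7 and 1053.6 CPM, and the knockdown libraries at 740.0, 416.0 and 749.4 CPM. That fit therefore does not remove the difference in malat1 between the arms.

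The deepest fall was in rps7, a 40S protein needed for early processing of the small subunit rRNA. Its controls held 3760, 3127 and 2425 TPM and the knockdown libraries 834, 512 and 298 TPM. Every knockdown library was thus below every control. Its log2 fold change was -3.19 (SE 0.32, adjusted p = 2.09e-09).

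Next came rpl5a, which encodes a 60S protein of the 5S rRNA particle. Controls were at 971, 857 and 428 TPM and knockdown libraries at 243, 147 and 110 TPM, with no overlap and a log2 fold change of -2.85 (SE 0.33, adjusted p = 2.38e-08). Its duplicate rpl5b fell less, by 1.53 on the log2 scale (SE 0.23). The third member of that particle, rpl11, fell by 1.27 (SE 0.29). In TPM its controls at 3778, 3208 and 1897 overlapped knockdown libraries at 2502, 1672 and 1892.

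Stalk genes, whose products recruit the translation factor GTPases to the large subunit, were also low. The stalk base rplp0 had 3578, 2851 and 1791 TPM in controls and 924, 660 and 714 TPM in knockdown libraries, a log2 fold change of -2.45 (SE 0.31). For rplp1 the change was -2.68 (SE 0.32), for rplp2 -2.18 (SE 0.32) and for its like gene rplp2l -1.86 (SE 0.27). Among 60S core genes, rpl3, which reaches toward the peptidyl transferase centre, fell by 2.17 (SE 0.22), and rpl35a by 2.60 (SE 0.34). In TPM rpl35a was the least abundant of the family apart from rps8b, but it was not so in reads.

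On the 40S side rps6, the substrate of the S6 kinases, fell by 2.03 (SE 0.21). Its controls had 1989, 1976 and 1519 TPM against 903, 649 and 610 TPM in the knockdown, without overlap. The laminin-receptor gene rpsa, a 40S protein, fell by 1.76 (SE 0.21), and rps20 by 2.57 (SE 0.33).

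At the other end, the smallest falls among called genes were those of rpl12, rpl32, rpl38, rpl11 and rps28. For rpl12, controls at 5698, 5304 and 4578 TPM overlapped knockdown libraries at 5322, 3034 and 4540 TPM. Its log2 fold change was -1.01 (SE 0.25, adjusted p = 0.00106) in counts scaled by TMM, a factor that aligns the bulk of genes between libraries.

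That scaling matters for the size of the changes. Scaled by library size alone, the median of all genes at 50 pg RfxCas13d moved to 0.64 and that of the ribosomal protein genes to -1.19, which is 1.83 below all genes, close to the 1.82 of the TMM fit. On log2(TPM + 1) with limma, medians were 0.60 and -1.04. Under library size 79 members stayed called (15.5% of all genes lower) and under either limma setting 75 (12.6% and 13.5%). Among the genes that lost their call in 1 or more of these fits were rpl12, rpl32, rpl29, rpl38 and rps28, and no member changed sign.

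**Figure D3:**
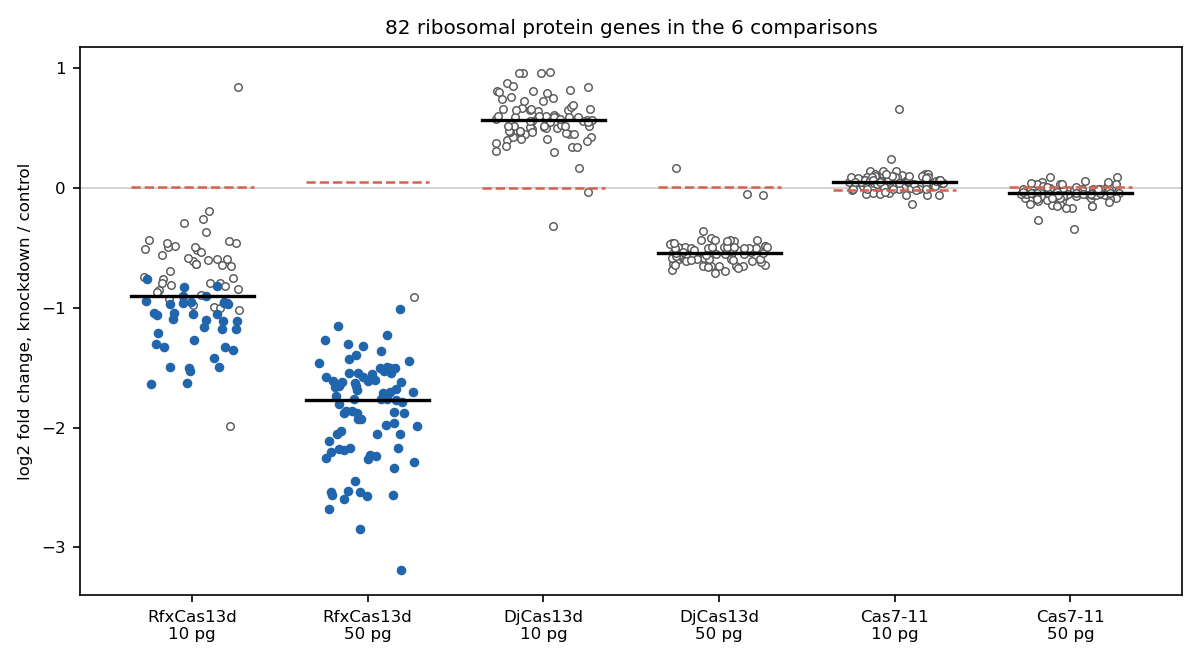
Log2 fold change of knockdown over control (y) for 82 genes in each of the 6 comparisons (x), from the edgeR fit. Filled points passed an adjusted p of 0.05, solid lines are medians of the family and dashed lines medians of all 16321 genes. All filled points lie below 0 and all belong to RfxCas13d: 38 at 10 pg and 81 at 50 pg.

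With 10 pg and RfxCas13d, 38 of 82 genes fell, none rose, and the median was -0.90 (1.87-fold), where 6.98% of all genes were lower and 7.00% higher. Arms did not overlap, with the knockdown lower, for 79 genes, against 21.9% of all genes. Among the lowest values were those of rpl22l1 (-1.63, SE 0.37), rps29 (-1.53, SE 0.45) and rps20 (-1.50, SE 0.36). In rps29, knockdown libraries at 1059 and 999 TPM lay below controls at 2811, 1379 and 2991 TPM, of which the malat1-rich ones were the high pair. The 13 mitochondrially encoded mRNAs fell too, all 13 with a median of -2.0. They took 9.65% and 8.70% of reads in the malat1-rich controls 1 and 3. In control 2 they took 2.25%, near the 1.68% and 1.74% of the knockdown libraries.

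This 10 pg result rested on single libraries. Without the malat1-rich controls 1 and 3, which leaves 1 control, no member was called and the median was -0.27. Leaving out control 1 left 1 gene (2.07% of all genes lower) and leaving out control 3 left 2 (2.01%). Leaving out control 2 raised the count to 64, where 11.9% of all genes were lower. Leaving out either knockdown library keeps 1 in that arm, so no count is given. Where an arm keeps 1 library, that library is assumed to vary like the other groups. The fit with only these 5 libraries called 0 (0.0245% of all genes lower), and the fit with the replicate number as a block 1 (1.13%). On log2(TPM + 1) with limma, rps6 and rpl7l1 lay above 0 at this dose.

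The exception at this dose was rps27l, the only member above 0 in the TMM fit. This like gene of the 40S protein Rps27 is a p53 target in mammals. It held 250 and 246 TPM in the 10 pg knockdown and 98.5, 128 and 136 TPM in controls, without overlap, and its log2 fold change was 0.84 (SE 0.33, adjusted p = 0.0823), which did not pass. Scaled by library size alone it was at 0.95 and passed (edgeR, adjusted p = 0.0368), where 8.17% of all genes were higher. On log2(TPM + 1) with limma it was at 1.05 and passed (adjusted p = 0.0153), where 16.4% of all genes were higher and 3.73% lower. At 50 pg it fell by 1.54 (SE 0.31), from 140, 162 and 174 TPM to 99.3, 42.5 and 89.3 TPM.

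The response to RfxCas13d differed between doses for 42 genes, all lower at 50 pg (edgeR test of the difference, 20.9% of all genes lower), with a median difference of -1.0. The test subtracts the 10 pg response, so a weak fall at 10 pg by itself favours a call. The strongest by adjusted p were rps6 (difference -1.84, SE 0.30, adjusted p = 2.12e-05), rpl7l1 (-1.13, SE 0.19) and rps27l (-2.38, SE 0.45). Values for rps6 were -0.19 (SE 0.23) at 10 pg and -2.03 at 50 pg, and for rplp0 -0.49 (SE 0.33) and -2.45.

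Other genes had similar values at both doses in the TMM fit. For rpl12 the values were -1.04 (SE 0.29) at 10 pg and -1.01 at 50 pg, and for rpl23, a 60S protein that in mammals also binds Mdm2, -1.30 (SE 0.35) and -1.39 (SE 0.30). The difference for rpl12, 0.03 (SE 0.37), did not pass, which does not show that the doses acted alike. Scaled by library size alone, rpl12 was at -0.9 at 10 pg and -0.42 at 50 pg. On log2(TPM + 1) with limma it was at -0.66 and -0.31. Fitted on these libraries alone, 13 members differed by dose (10.2% of all genes lower), and without 50 pg control 3 there were 65 (21.2%).

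**Figure D4:**
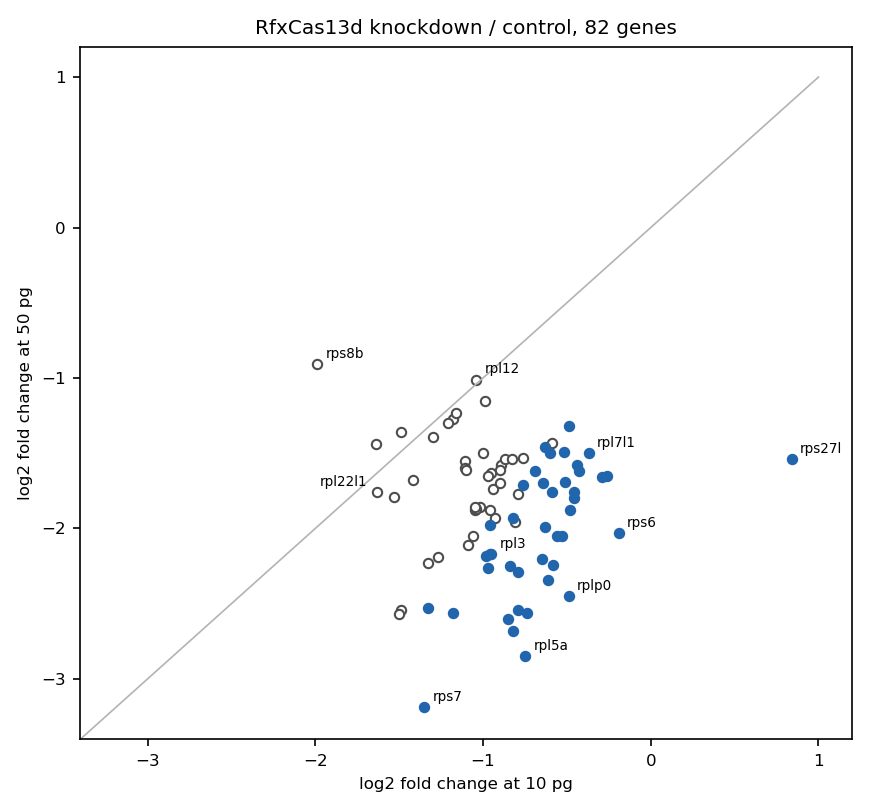
Log2 fold change of knockdown over control in the TMM fit, with RfxCas13d at 10 pg (x) and at 50 pg (y) for 82 genes. Filled points differed between doses at an adjusted p under 0.05, and the line marks equal change. The filled genes, among them rps6 at -0.19 and -2.03, lie below the line, while rpl12 at -1.04 and -1.01 lies near it.

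Within some pairs of paralogs, proportions in the 50 pg RfxCas13d knockdown lay outside the range of its controls. The share of rpl5a in the summed TPM of rpl5a and rpl5b was 14.2% ± 3.35 (11.0% to 17.7%, n = 3) there and 29.5% ± 3.58 (25.4% to 31.8%, n = 3) in its controls. No library of the other groups was below 25.0%. Of the Rps27 duplicates, rps27.2 made up 61.5% ± 4.2 of the summed TPM of rps27.2 and rps27.1, against 50.5% ± 0.276 in controls, without overlap. These shares had no test of their own, and the pairs were described after their values were seen.

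Levels of rps27l also differed by effector, in controls as in knockdowns. Group means were 450 to 530 TPM in the 4 Cas7-11 groups and 77.0 to 248 TPM in the 8 others. It made up 36.1% to 38.6% of the summed TPM of rps27l and rps27.1 with Cas7-11, and 8.82% to 27.9% elsewhere. Here effector, depth and experiment cannot be told apart.

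**Figure D5:**
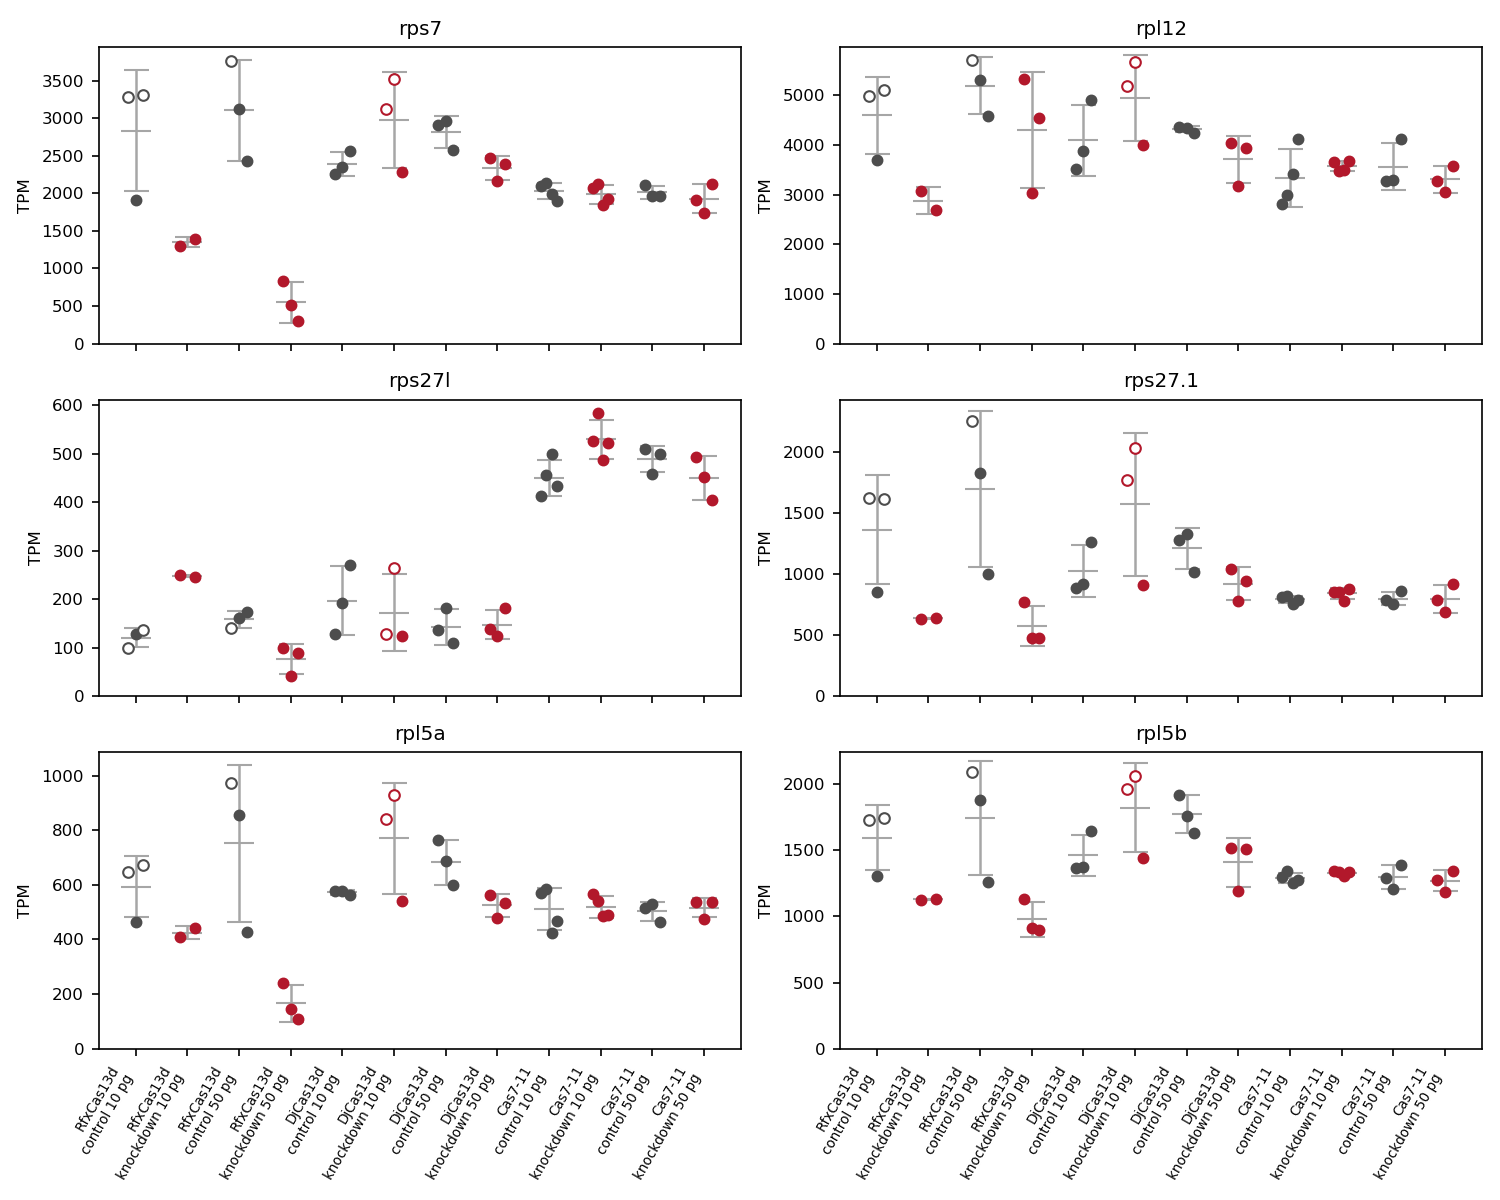
TPM of 6 genes (y) in each library by group (x), with grey control and red knockdown points, open circles for malat1-rich libraries, and grey bars for mean ± SD. In the 50 pg RfxCas13d knockdown rps7 (298 to 834 TPM) and rpl5a (110 to 243 TPM) lie below all other groups, rpl12 overlaps its controls, and rps27l is highest with Cas7-11.

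With 50 pg and DjCas13d, no member passed the edgeR test (0.00613% of all genes were lower and 0% higher), and 40 had an unadjusted p under 0.05, as did 9.36% of all genes. DESeq2 and limma called 0 as well, where 0.128% of all genes were lower with DESeq2 and 0.00613% with limma. The median was -0.54 (1.45-fold), and 81 of 82 genes lay below 0. Arms did not overlap, with the knockdown lower, for 76 genes against 12.2% of all genes. No library here was malat1-rich, yet malat1 did not overlap between these arms either. It stood at 2272.3, 1497.4 and 1366.5 CPM in controls and at 1364.9, 739.6 and 827.1 CPM in knockdown libraries. Its part in this comparison was not tested. The lowest value was that of rpl22 (-0.71, SE 0.28, adjusted p = 0.49). Fitted with only its own 6 libraries, which estimates the spread from them alone, the same comparison called 73 members, all lower, with a median of -0.55, where 3.02% of all genes were lower.

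The 10 pg DjCas13d comparison also called 0 members with edgeR, DESeq2 and limma. Of all genes, 0% passed with edgeR. DESeq2 called 0.159% lower and 0.52% higher, and limma at most 0.0245% lower and 0% higher. With edgeR, 47 members had an unadjusted p under 0.05, as did 15.6% of all genes. Here 80 of 82 genes lay above 0, with a median of 0.57. Arms did not overlap, with the knockdown higher, for 3 genes, a share below the 5.67% of all genes. Without knockdown 3, which was not malat1-rich, 50 members were higher and the median was 0.80, where 7.49% of all genes were higher. Without the 2 malat1-rich knockdowns, which leaves only knockdown 3 in that arm, the median was -0.09. Mitochondrially encoded mRNAs had a median of 1.18 in this comparison, with 0 of 13 called.

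The response to DjCas13d differed between doses for 0 members with edgeR or limma and for 12 with DESeq2 (0.808% of all genes lower). Of all genes, 0% differed with edgeR, while with limma 0% were lower and up to 0.0306% higher. An unadjusted p under 0.05 was found for 77 members and 17.6% of all genes. The median difference was -1.10, and -0.48 without the malat1-rich libraries, which leaves only knockdown 3 in the 10 pg knockdown arm. Leaving out the 10 pg knockdown 3 gave 73 members, all lower at 50 pg, where 6.16% of all genes were lower.

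Cas7-11 gave 0 called members at either dose with edgeR, DESeq2 and limma. With edgeR, 0.0674% of all genes were lower at 10 pg and 0.0613% at 50 pg, and 0.00613% and 0% were higher. DESeq2 had 0.219% and 0.29% lower, and limma 0.0551% and up to 0.0184%. Unadjusted, 0 and 1 members had p under 0.05, against 2.59% and 3.22% of all genes. Medians were 0.05 at 10 pg and -0.04 at 50 pg, with median SEs of 0.24 and 0.28. Values of the 82 genes ran from -0.34 to 0.66, both those of the sparsely counted rps8b. Apart from rps8b they ran from -0.27 (rpl7l1 at 50 pg) to 0.24 (rps27l at 10 pg). For rps7 at 50 pg, controls held 2106, 1963 and 1964 TPM and knockdown libraries 1909, 1740 and 2127 TPM, which overlapped. The dose difference called 0 members with edgeR, DESeq2 and limma, and 0% of all genes with each. Unadjusted, 0 members had p under 0.05 with edgeR, against 1.23% of all genes.

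Compared at 50 pg, the RfxCas13d response was lower than that of DjCas13d for 65 of 82 genes (17.5% of all genes lower; median difference -1.29). It was lower than that of Cas7-11 for 81 (22.6% of all genes lower; median difference -1.77). Both comparisons share the RfxCas13d libraries. Among the strongest, rps7 differed by -2.72 (SE 0.42) from DjCas13d and -3.10 (SE 0.42) from Cas7-11, and rpl3 by -1.62 (SE 0.30) and -2.12 (SE 0.30). For rpl7l1, a like gene of rpl7, the difference from DjCas13d was -1.44 (SE 0.18), and for rps6 that from Cas7-11 was -2.0 (SE 0.29). DjCas13d and Cas7-11 differed for 0 members with edgeR, DESeq2 and limma, with a median difference of -0.50. Of all genes, 0% were lower with edgeR and limma and 0.0637% with DESeq2. Unadjusted, 2 members had p under 0.05 with edgeR, against 5.32% of all genes.

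A list of ribosomal and ubiquitin genes outside the symbol rule held 5 genes, of which 4 fell at 50 pg RfxCas13d. Among them were faua (-2.29, SE 0.34), which encodes a ribosomal protein fused to a ubiquitin-like protein, the 40S scaffold rack1 (-0.96, SE 0.19), and the polyubiquitin gene ubb (-0.59, SE 0.19), which encodes no ribosomal protein. UBB was at -0.15 (SE 0.20).

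In the same comparison 61 of 75 biogenesis factors fell, 0 rose, and their median was -0.96. The smallest adjusted p was that of pes, a Pes1 homolog for 60S assembly, at -2.59 (SE 0.20), followed by bms1, a GTPase of 40S assembly, at -1.83 (SE 0.15), and nvl at -1.30 (SE 0.12). Of 12 genes of RNA polymerase I and its factors, 8 fell and 1 rose, among them the core subunit genes polr1b (-1.48, SE 0.21) and POLR1A (-1.17, SE 0.19).

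Among 32 translation initiation factors, 18 fell and 4 rose, with a median of -0.69. Examples are eif5 at -2.28 (SE 0.21), whose product triggers GTP hydrolysis at the start codon, and eif2s3 at -1.52 (SE 0.18), a subunit of the initiator tRNA carrier. Of 27 tested elongation factors and other genes whose mammalian mRNAs carry a TOP motif, 20 fell and 3 rose, with a median of -1.11. Among them were the elongation factor genes eef2a.1 (-2.41, SE 0.23) and eef2b (-1.61, SE 0.17).

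Of 23 genes that control TOP mRNA translation or belong to the p53 response, 10 fell and 7 rose, where 28.8% of all genes fell and 30.0% rose. The translation repressor eif4ebp2 rose by 2.14 (SE 0.17) while eif4ebp1 fell by 1.30 (SE 0.20). Mitochondrial ribosomal proteins, which serve the other ribosome of the cell, had 35 of 76 lower and 9 higher, with a median of -0.38. None of the 13 mitochondrially encoded mRNAs passed at 50 pg. All these counts stand beside the 28.8% and 30.0% of all genes given above.

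At 10 pg RfxCas13d, beside 6.98% of all genes lower and 7.00% higher, 7 of 75 biogenesis factors fell and 4 rose, with a median of -0.02, and 3 of 32 initiation factors fell and 0 rose. Of 76 mitochondrial ribosomal proteins 12 fell and 1 rose, with a median of -0.20, and all 13 mitochondrially encoded mRNAs fell. As given above, controls 1 and 3 of this comparison were rich in malat1 and in mitochondrially encoded mRNAs. Of the 27 elongation factor and TOP genes 2 fell and 1 rose, as did 2 and 1 of the 12 RNA polymerase I genes. Of the 23 regulators 1 fell and 3 rose, and of the 5 genes outside the symbol rule 0 fell and 2 rose. In the DjCas13d and Cas7-11 comparisons of arms no gene of any of these 8 lists was called. Of all genes, at most 0.0674% were lower and 0.00613% higher there. Among the genes outside the family whose log2 CPM correlated best with the family mean over 37 libraries were rsl24d1 at 0.99, and pabpn1, cdc26 and bud23 at 0.96. The yeast counterpart of rsl24d1 (Rlp24) holds the place of Rpl24 during 60S assembly.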

How the data were processed

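Libraries came from TRIzol-extracted total RNA and a directional kit, per the labels' protocols. Build danRer11 comes from the submitters' processing notes. No aligner, counter or strand setting is named in the labels, so overlapping and antisense genes are uncertain. The authors deposited, per library, raw counts (whole reads per gene, not normalized) and TPM values. Entries that name no gene, 17.3% to 26.4% of reads, were left out.

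The test of the counts was edgeR 4.0.16 (R 4.3.3): filterByExpr on the 12 groups, TMM scaling, 1 robust quasi-likelihood fit over 37 libraries, and Benjamini-Hochberg adjustment over 16321 genes at 0.05. Alternatives used DESeq2 1.42.0, limma 3.58.1 on log2(TPM + 1) and log2(TPM + 0.1), other scalings and filters, a replicate block, and left-out libraries (malat1-rich means above 5000 CPM). The fit was tested on simulated counts. Members were matched by symbol and joined to counts by Ensembl ID, and groups come from the titles.

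The members and gene lists were chosen with earlier results of these data known. Named genes are, in each comparison of arms, the 5 lowest and 5 highest members, in tests of a difference the 3 with the smallest adjusted p, the like and stalk genes, rpsa, rpl22, rpl7, rps27.1, rps27.2, rpl3, rps6, rpl11, rpl5a and rpl5b, and up to 4 genes per list. Some genes that this rule names are not reported here. Others (rpl23, rpl26, rpl9 and the genes that lost a call) were chosen after their values were seen. Same-numbered arms correlated at 0.28 to 0.51 in all 4 pairs of Cas7-11 at 10 pg, so those numbers may pair libraries. Libraries of different numbers were not compared, so pairing is not shown, and the main test was unpaired. With the block no call of a member changed there, while 0.0551% of all genes were lower against 0.0674% in the main fit. No sequences or positions were used.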

Additional observations from a re-analysis of the deposited data

Results flagged for a closer look

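In the highest 10 pg Cas7-11 control, rpl11 stood at 2051 TPM, apart from the other 3 libraries of its group. The lowest 10 pg Cas7-11 knockdown, at 1942 TPM, stood apart from its group in the same way. Both were found among 36 sets of values tested for an outlying library, and chance marks about 1 in 20. All 36 came from the 10 pg Cas7-11 groups. Groups with fewer libraries were not tested.

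Tests of the difference itself picked out 42 members between the RfxCas13d doses, 65 between RfxCas13d and DjCas13d at 50 pg, and 81 between RfxCas13d and Cas7-11 at 50 pg. In the same 3 tests 20.9%, 17.5% and 22.6% of all genes were lower, and 19.8%, 15.8% and 22.7% higher. Between doses the log2 differences of rps6, rpl7l1 and rps27l were -1.84, -1.13 and -2.38. Between RfxCas13d and DjCas13d those of rpl7l1, rps7 and rpl3 were -1.44, -2.72 and -1.62. Between RfxCas13d and Cas7-11 those of rps7, rpl3 and rps6 were -3.10, -2.12 and -2.0.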

How the results depend on the processing

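At 50 pg RfxCas13d, 75 to 81 members fell under every alternative run, where 12.6% to 29.8% of all genes were lower. In each of the 6 fits that left out 1 library 81 fell, with medians of -2.14 to -1.52 (24.5% to 29.8% of all genes lower). At 10 pg the count of 38 moved to 22 (2.67% of all genes lower) with every gene of at least 1 read tested. It moved to 0 with only its own libraries (0.0245%) and to 1 with the replicate block (1.13%). With 1 control left out it ranged from 1 (2.07%) to 64 (11.9%). DESeq2 gave 50 (9.5%). The fit without the malat1-rich libraries, which keeps 1 control, is described above. Fits without 1 knockdown library keep 1 in that arm, so their counts for the 10 pg comparison of arms are left out. The 50 pg DjCas13d count moved from 0 to 73 with only its own libraries (3.02% of all genes lower). The RfxCas13d dose count of 42 moved to 13 with only its own libraries (10.2% of all genes lower). With 1 library left out it ranged from 30 to 65. The 65 was without 50 pg control 3 (21.2% of all genes lower). The 30 was without 10 pg knockdown 1, which keeps 1 library in that arm, so no conclusion is drawn from it. The DjCas13d dose count moved from 0 to 12 with DESeq2 (0.808% of all genes lower). With 1 library left out it ranged from 0 (0%) to 73 (6.16%). With 1 library left out, RfxCas13d against DjCas13d gave 48 to 80 and against Cas7-11 73 to 81. The lowest counts were without 50 pg RfxCas13d control 1, where 15.3% and 20% of all genes were lower. Without control 3, which gave the highest counts, 18.3% and 23.1% were lower. The 10 pg DjCas13d median of 0.57 turned to -0.09 without the malat1-rich libraries, which keeps 1 library in the knockdown arm. The cause was not tested, beyond fewer libraries or more genes in those fits. The replicate block moved no other count of calls by over 1.5 times. Outside 10 pg Cas7-11, same-numbered libraries correlated at -0.23 to 0.19, so those numbers were not taken to pair libraries. RfxCas13d libraries, at 3944559 to 8034012 reads, limit genes counted as sparsely as rps8b.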

Other observations

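The deposited TPM and count tables disagreed for rpl26: the 50 pg RfxCas13d control 2 listed 2646 TPM and 3 reads, and the 10 pg RfxCas13d control 1 listed 2288 TPM and 0 reads. In TPM, rpl26 stood at 1184, 1182 and 1006 in the 50 pg RfxCas13d knockdown and at 3103, 2646 and 682 in its controls, which overlapped through control 3. In rpl22l1, a like gene of rpl22, the 10 pg RfxCas13d knockdown libraries held 143 and 110 TPM, below controls at 355, 187 and 354 TPM.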
